A study of Mus musculus with 4 samples.

Results

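Neural progenitors of control embryos isolated at embryonic day 14 (E14) were compared with those isolated at embryonic day 11 (E11), gene by gene, after both had been kept in culture for 3 days. Both were from mice of the C57BL/6 strain, and each stage was represented by 1 library. The sample labels give the genotype as WT. The RNA-seq methods of the study likewise say wild type, whereas its animal methods name as controls embryos that carry Nestin-Cre and 1 floxed *Stat3* allele (Nestin-Cre; *Stat3*-flox/+), with Cre driven by a rat Nestin promoter and enhancer, so which of them gave these libraries is not settled by the sources. They are called E11 CTL and E14 CTL here. Embryonic brains were dissected and grown in suspension as neurospheres with EGF and FGF, so the cells were exposed to these mitogens at both stages, and how many embryos went into a library is not given in the sources used here. Of 21091 deposited entries, each a gene at a locus, 12449 were analyzed because their average over the 4 libraries of the series reached 1 FPKM. FPKM counts the fragments of a transcript per unit of its length and per mapped fragment of the library. The remaining libraries were the matched pair labelled *Stat3* cKO, in which Nestin-Cre is meant to delete *Stat3*, and their values stand beside the control values where they help to read them. *Stat3* itself was at 7.41 FPKM in E11 CTL and 6.74 in E11 *Stat3* cKO, while the E14 libraries of these genotypes had 27.6 and 9.55, so the genotypes barely differed in its level at E11. FPKM over a whole gene includes exons outside the floxed part. With 1 library per stage there is no spread between replicates against which a difference could be set, so no p-value is given, and an entry is said to have risen or fallen only when its plain E14 to E11 ratio passed 2-fold.

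Cortical progenitors change what they produce with age. Early radial glia, the neural stem cells that line the ventricle, amplify themselves and then make neurons of the deep and later the upper layers, and towards birth they turn to astrocytes and oligodendrocytes. This order is carried by stage-specific regulators, among them LIN28, HMGA2 and the IMP family of RNA-binding proteins on the early side and NFI factors, SOX9 and OLIG factors on the late side, while secreted WNT, BMP, FGF and SHH signals place the cells along the axes of the neural tube.

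Neural stem cell markers were present at both stages. *Sox2*, a transcription factor that keeps neural progenitors undifferentiated, was at 128 FPKM in E11 CTL and 206 in E14 CTL, and *Nes*, the intermediate filament nestin, was at 41.2 and 109. Genes of non-neural cells were mostly low, with 1 exception. The 18 microglia and leukocyte markers summed to 49.9 FPKM in E11 CTL and 34.3 in E14 CTL, and *Aif1*, which defines microglia, was at 0.512 and 0. Of the 6 that reached the minimum 5 fell, and much of the E14 sum was *Coro1a*, an actin-binding protein, which rose from 12.8 to 28.8 FPKM, short of 2-fold under each of the 3 scalings. The median of the 6 was 3.16 FPKM in E11 CTL and 0.328 in E14 CTL, so most of them passed the minimum through E11. The 10 erythroid entries summed to 36.1 FPKM in E11 CTL and 2.78 in E14 CTL, and to 14.4 and 2.05 in the *Stat3* cKO pair. The 14 endothelial markers summed to 7.18 and 1.96 FPKM, and *Pecam1* was at 0.377 and 0.235. The exception was the list of 26 mesenchymal, pericyte and meningeal genes, whose members summed to 1673 FPKM in E11 CTL and 71.6 in E14 CTL. The corresponding sums in the *Stat3* cKO libraries were 1447 and 56.3. Ratios of all genes are therefore ratios between cultures that differed in these transcripts as well, and their part in other results was not tested. In bulk RNA, fewer cells of a type and less RNA per cell cannot be told apart. The Y-linked gene *Eif2s3y* was listed at 0 in both E11 libraries, whereas E14 CTL had 0.123 FPKM and E14 *Stat3* cKO 40. *Xist*, which is transcribed from the inactive X chromosome, was at 46.9 FPKM in E11 CTL and 13.6 in E14 CTL, and at 39.7 and 0.037 in the *Stat3* cKO pair, so the libraries did not match in these sex-linked genes.

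A ratio could be formed for 12430 genes, since 19 were listed at 0 in at least 1 control library. Among the latter, *Rn45s*, the ribosomal RNA precursor, was listed at 0 in E11 CTL while E14 CTL had 4154 FPKM, and *Cacna2d1*, a calcium channel subunit, was at 17.8 and 0. Both were above 0 in each *Stat3* cKO library, and a 0 can be a failed estimate, so no fold is given for them. Among the 12430, 1820 rose to 2-fold or more in E14 CTL, which is 14.6% of the genes with a ratio, and 1548 were at least 2-fold lower, which is 12.5%. These shares, which together make 27.1%, are the background against which each list of genes is read below. The typical gene was slightly higher at E14. The log2 ratio had a median of 0.21, which corresponds to a ratio of 1.16, and 7525 genes (60.5%) had a ratio above 1. Large falls outnumbered large rises. At 4-fold, 369 genes were higher and 701 lower, at 8-fold 128 and 443, and at 16-fold 43 and 282. The balance of rises and falls depended on how the libraries were scaled. Summed over all entries, FPKM came to 948738 in E11 CTL and to 1394050 in E14 CTL, and the 10 highest entries, mostly short RNAs such as *Rmrp* and *Mir5133*, held 43.4% and 44.5% of these sums. When the median log2 ratio was set to 0, 1210 genes were higher (9.73%) and 1901 lower (15.3%). Scaling each library to its upper quartile moved every log2 ratio by -0.37 and left 896 higher (7.21%) and 2237 lower (18%). Scaling to a common sum (TPM) moved them by -0.56 and left 653 higher (5.25%) and 2795 lower (22.5%). Rises thus outnumbered falls only in the values as deposited, and small changes are best set against the median of all genes, 0.21 in those values.

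**Figure D1:**
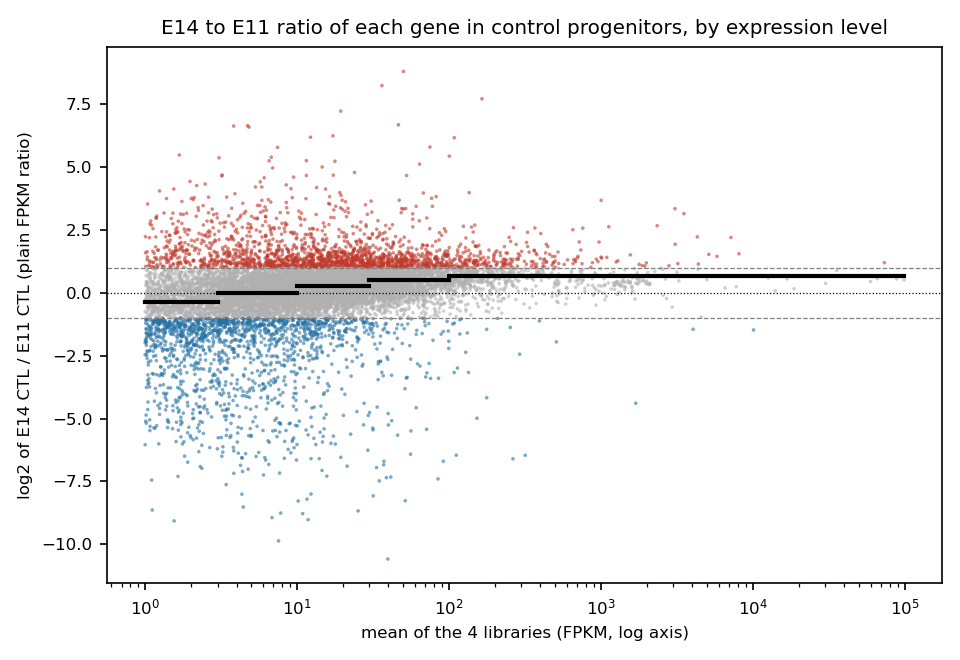
Each point is 1 of the 12430 genes with a ratio. The horizontal axis gives the mean of the 4 libraries in FPKM on a log axis and the vertical axis the log2 of the plain E14 CTL to E11 CTL ratio. Red points were at least 2-fold higher at E14 and blue points at least 2-fold lower (dashed lines), and thick black lines mark the median in 5 bins of expression, which climbs from -0.36 in the lowest bin to 0.67 in the highest.

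The ratio depended on the level of expression. Among the 1925 genes that averaged 1 to 3 FPKM the median log2 ratio was -0.36, and 12.4% rose and 30.2% fell. Among the 823 that averaged 100 FPKM or more the median was 0.67, and 27.9% rose and 2.92% fell. It also depended on the length of the locus, with a median of 0.36 among the 2486 genes with the shortest loci and -0.01 among the 2485 with the longest. Medians of single chromosomes ranged only from 0.11 on chromosome 14 to 0.35 on chromosome 13. A list of highly expressed genes is therefore best read against the upper bins.

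The largest changes ran from near absence at 1 stage to high expression at the other. Among entries with 1 symbol that averaged 5 FPKM or more, the largest rise was that of *Ttr*, which encodes transthyretin, a carrier of thyroid hormone made by the choroid plexus. Its level was 0.263 FPKM in E11 CTL and 118 in E14 CTL, a 448-fold rise, with 0.282 and 82.2 in the *Stat3* cKO pair. *Car3*, a carbonic anhydrase, rose from 0.317 to 95.9 FPKM and *Olig1* from 1.64 to 345. The glial genes *Rlbp1*, *Aldoc*, *Bcan*, *Mt3* and *Slc6a11* were also among the 20 largest rises. The largest fall was that of *Crabp2*, which delivers retinoic acid to its nuclear receptors. It was at 76.9 FPKM in E11 CTL and 0.05 in E14 CTL, and it was at 80.8 and 0.483 in the *Stat3* cKO pair. *Shox2*, a homeobox gene, fell from 17.7 to 0.0189 FPKM and *Dkk2*, a secreted regulator of WNT signaling, from 33.1 to 0.0636. Values below about 0.1 FPKM rest on very few fragments, so the exact size of such a fold is uncertain. Several of the 20 largest falls are genes of connective tissue or meninges, among them *Lum*, *Osr1*, *Alx1*, *Lox*, *Tgfbi* and *Bgn*.

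Glial genes were prominent among the rises. Of 23 analyzed astrocyte markers, 12 rose and 5 fell (median log2 ratio 1.30), and of 15 analyzed genes of the oligodendrocyte lineage, 10 rose and 3 fell (median 2.82). Some of the oligodendrocyte genes, such as *Sox10* and *Gpr17* below, passed the minimum through the E14 libraries, which favors rises in that list. The background shares were 14.6% and 12.5%. Under TPM scaling 10 astrocyte markers and 9 oligodendrocyte genes still rose, and 5 of the 15 oligodendrocyte genes fell.

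Among astrocyte genes, *Aldoc*, the brain isoform of aldolase, rose from 2.69 FPKM in E11 CTL to 193 in E14 CTL, or 71.9-fold. *Aldh1l1*, a folate enzyme that marks astrocytes widely, rose from 8.9 to 78.6 FPKM. *Mlc1*, a membrane protein of astrocyte endfeet, rose from 8.14 to 74.3 FPKM. Each of these was also high in E14 *Stat3* cKO, at 235, 136 and 102 FPKM in that order. *S100b*, a calcium-binding protein of maturing glia, rose from 0.306 to 1.5 FPKM, and *Aqp4*, the water channel of endfeet, from 1.29 to 3.63. *Gfap*, the classical astrocyte filament, stayed below the minimum, with 0.124 FPKM in E11 CTL and 0.901 in E14 CTL. Not all markers moved the same way. *Gja1*, the gap junction protein connexin 43, fell from 138 to 13.1 FPKM, and its partner *Gjb6*, connexin 30, fell from 30.7 to 0.12. *Slc1a2*, the glutamate transporter GLT-1, fell from 9.73 to 4.42, whereas *Slc1a3*, the transporter GLAST of radial glia, was at 112 and 206, below the 2-fold limit.

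Both early and later genes of the oligodendrocyte lineage were among those that rose. *Olig2*, which specifies oligodendrocyte precursors and patterns the ventral neural tube, rose from 11.9 FPKM in E11 CTL to 168 in E14 CTL. *Sox10*, a determinant of the lineage, rose from 0.215 to 6.74 FPKM and *Gpr17*, a receptor of committed precursors, from 0.133 to 5.58. Both were higher still in E14 *Stat3* cKO, at 20.6 and 21.3 FPKM. *Cspg4*, which encodes the precursor antigen NG2, rose from 0.56 to 4.84. Of the genes of myelin and maturing cells, *Cnp*, an enzyme of myelin, rose from 3.99 to 28.2 FPKM. *Mbp*, myelin basic protein, was at 4.09 FPKM in E11 CTL and 2.82 in E14 CTL, and *Mog* was at 1.13 and 0.996. *Pdgfra*, the receptor that defines oligodendrocyte precursors but also marks mesenchyme, was at 53.1 and 35.9. *Nkx2-2*, a ventral patterning factor that also acts in oligodendrocyte differentiation, fell from 2.93 to 0.583 FPKM.

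Of 25 analyzed radial glia and neural stem genes, 10 rose and 4 fell (median 0.48, or -0.07 under TPM scaling, which left 2 rises and turned the median negative). *Fabp7*, the brain lipid-binding protein of radial glia, rose from 516 FPKM in E11 CTL to 5245 in E14 CTL. *Vim*, the intermediate filament vimentin, rose from 582 to 1556 FPKM. *Egfr*, the receptor through which late progenitors respond to EGF, rose from 13.8 to 43.3 FPKM, and *Hopx*, a marker of outer radial glia, from 13.3 to 38.3. *Pax6*, which drives dorsal neurogenesis, fell from 44.2 to 14.6 FPKM. *Msi1*, the RNA-binding protein Musashi-1, fell from 21.2 to 4.25. Of 13 gliogenic transcription factors, 5 rose and 3 fell, with a median of 0.55 as deposited that became -0.01 under TPM scaling. *Nfix* rose from 1.65 to 11.8 FPKM and *Nfib* from 14.8 to 51.7, both NFI factors that act in the onset of gliogenesis. *Nfia*, of the same family, was at 5.25 and 7.65 FPKM and *Sox9* at 5.68 and 6.83, neither past the limit.

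**Figure D2:**
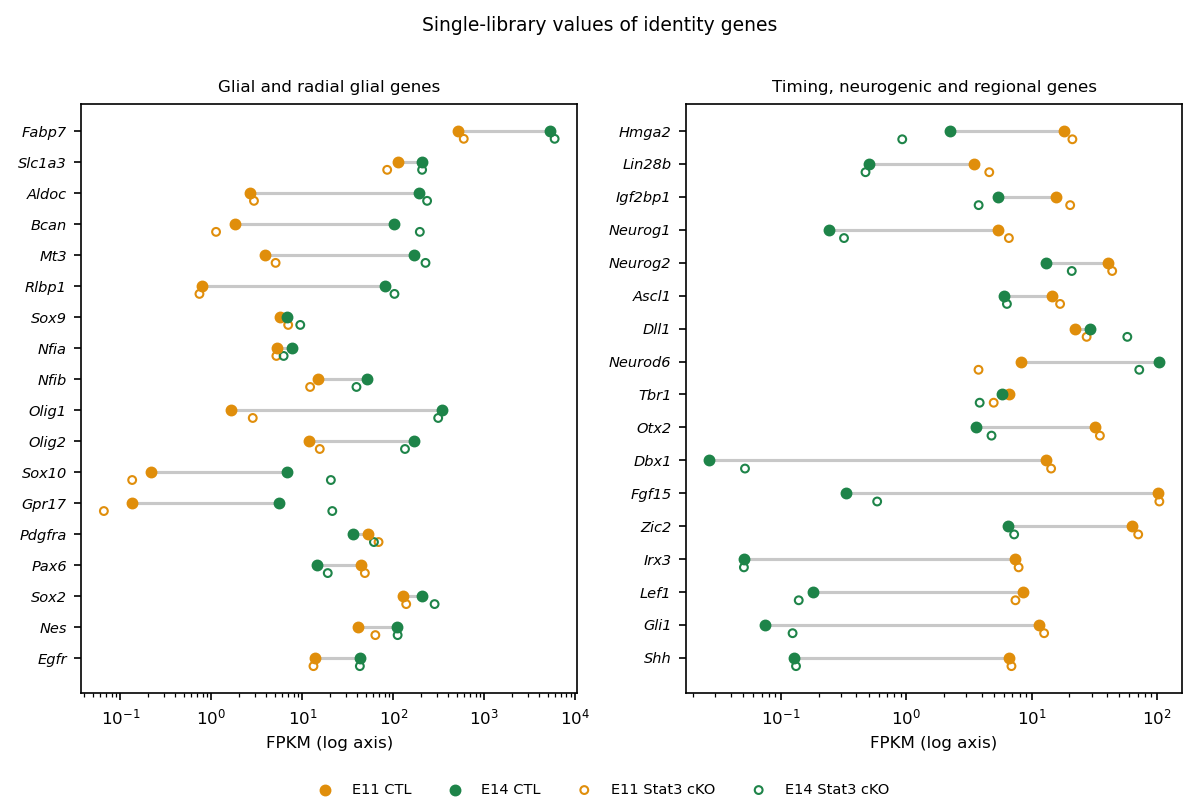
Values of glial, timing, neurogenic and regional genes in the 4 libraries, in FPKM on a log axis. Filled points are the control libraries (orange for E11, green for E14), joined by a grey line, and open points below them the *Stat3* cKO libraries of the same stages. Glial genes such as *Aldoc*, *Bcan* and *Olig1* lie far to the right at E14, and regional genes such as *Dbx1*, *Fgf15* and *Gli1* far to the left, in both genotypes.

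Several early timing genes fell. Of 12 analyzed genes of the heterochronic list, 5 fell and 2 rose (median -0.39, against -1.70 in the *Stat3* cKO pair). *Hmga2*, a chromatin protein that sustains young neural stem cells, was at 18 FPKM in E11 CTL and 2.22 in E14 CTL, an 8.14-fold fall, and at 21.1 and 0.927 in the *Stat3* cKO pair. *Lin28b*, which blocks maturation of let-7 miRNAs, fell from 3.48 to 0.503 FPKM. *Lin28a* and *Trim71*, of the same pathway, were below the minimum but declined likewise, *Lin28a* from 0.637 to 0.0295 FPKM and *Trim71* from 1.41 to 0.0817. The RNA-binding proteins *Igf2bp1* and *Igf2bp2* fell from 15.6 to 5.35 and from 19.9 to 7.18 FPKM, whereas *Igf2bp3* was at 35.1 and 32.2. The largest rise of the list was that of *Hbegf*, a growth factor, from 1.72 to 11.6 FPKM.

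Several neurogenic factors fell, and a subset of postmitotic genes rose. Of 15 analyzed proneural and intermediate progenitor genes, 7 fell and 2 rose (median -0.56). *Neurog1* and *Neurog2*, the bHLH factors that commit cortical progenitors to neurons, fell from 5.41 to 0.24 FPKM and from 40.8 to 13. *Nhlh1* and *Nhlh2*, bHLH genes of newborn neurons, fell from 5.42 to 0.368 and from 20.4 to 1.78. *Eomes*, which marks intermediate progenitors, was at 10.7 and 8.5 FPKM and did not pass the limit. The 2 members that rose were the cortical pyramidal genes *Neurod6*, from 8.14 to 104 FPKM, and *Neurod2*, from 3.95 to 39.5. Layer genes were mixed, with 5 of 18 higher and 4 lower as deposited and 4 higher and 5 lower under TPM scaling. *Bcl11b* (CTIP2), of deep-layer neurons, rose from 4.85 to 12.1 FPKM. *Foxp2* fell from 11.8 to 1.39 FPKM and *Lhx5*, of early-born hem-derived and diencephalic cells, from 11.9 to 0.572. Of 21 neuronal cytoskeletal and RNA-binding genes 2 rose and 4 fell as deposited, and none rose under any of the 3 scalings. *Tubb3*, the neuronal tubulin, was at 463 FPKM in E11 CTL and 569 in E14 CTL.

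Of 25 analyzed synapse and vesicle genes, 10 rose and 3 fell as deposited, and 3 rose and 4 fell under TPM scaling, which took the median from 0.51 to -0.04. *Gria2*, an AMPA receptor subunit, rose from 25.6 to 64.8 FPKM and *Snap25*, of the vesicle fusion machinery, from 15.7 to 37.6. The 3 that fell carry transmitter identity. *Slc17a6*, the vesicular glutamate transporter VGLUT2 of subcortical neurons, fell from 23.9 to 3.7 FPKM, *Gad2*, which makes GABA, from 8.05 to 2.13, and *Slc32a1*, which loads GABA into vesicles, from 5.58 to 2.43. Among gene families, 5 of 9 GABA-A receptor subunits, 6 of 14 ionotropic glutamate receptors and 7 of 15 voltage-gated potassium channels rose as deposited, while 0, 1 and 2 fell. Under TPM scaling the rises numbered 2, 4 and 7 and the falls 1, 1 and 3. Of all genes 14.6% rose as deposited and 5.25% under TPM scaling. The largest rise in each was that of *Gabrg1*, from 0.302 to 16.7 FPKM, *Grin2c*, from 0.129 to 13 FPKM and *Kcnq5*, from 0.192 to 3.36 FPKM. These members passed the minimum through the E14 libraries, which favors rises in such families.

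Regional genes of the caudal neural tube were low in these cultures, and lower at E14. The 29 midbrain, hindbrain and spinal patterning genes summed to 81.4 FPKM in E11 CTL and 5.57 in E14 CTL, and to 73.2 and 5.63 in the *Stat3* cKO pair. Of these genes, 19 averaged below the minimum. The 10 analyzed had a median of 6.21 FPKM in E11 CTL and 0.206 in E14 CTL, so they passed the minimum through the E11 libraries, and the 9 falls among them (median log2 ratio -5.35) were in large part set by that. *Dbx1*, of ventral interneuron progenitors and of early cortical boundary domains, was at 13 FPKM in E11 CTL and 0.0265 in E14 CTL, and at 14.3 and 0.0516 in the *Stat3* cKO pair. *En2*, a midbrain-hindbrain gene, fell from 4.85 to 0.415 FPKM and *Pax3*, of the dorsal neural tube, from 3.57 to 0.00663. The 4 analyzed Irx genes, with medians of 8.76 FPKM in E11 CTL and 0.165 in E14 CTL, likewise passed the minimum through E11, with *Irx3* going from 7.39 to 0.0509 FPKM. All 5 Zic genes fell, too, and *Zic1*, a zinc finger gene of dorsal midline cells and of the meninges, went from 68.4 to 7.05. None of the 38 Hox genes, which pattern the hindbrain and spinal cord, reached the minimum.

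Forebrain genes fell in part and rose in part. Of 21 analyzed, 10 fell and 3 rose (median -0.84). *Emx1*, of the dorsal telencephalon, rose from 10.1 FPKM in E11 CTL to 24.2 in E14 CTL. *Otx2*, of the forebrain and midbrain, fell from 31.9 to 3.56, and *Nr2f2* (COUP-TFII), of caudal and ventral telencephalon, from 37 to 3.72. Under TPM scaling 14 of the 21 fell and none rose, with *Emx1*, *Lhx6* and *Meis2* then short of the limit. Of 22 analyzed Fox genes, 12 were lower and 1 higher, and *Foxd1*, of diencephalic and meningeal cells, fell from 47.6 to 0.117 FPKM.

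Many ligands and targets of the pathways that place these regions fell alongside. For WNT signaling, 21 of 32 analyzed genes fell and 3 rose (median -1.93). Among ligands, *Wnt8b*, of the cortical hem, fell from 4.6 to 0.101 FPKM, whereas *Wnt7a*, of ventricular zone radial glia, rose from 3.97 to 27.2 and *Wnt7b* was at 25.4 and 30.2. Among receptors and co-activators, *Rspo1*, *Rspo2* and *Lgr4* fell, the last from 42.8 to 5.98 FPKM, and *Fzd9* rose from 7.6 to 25.9. Among nuclear effectors and targets, *Lef1* fell from 8.56 to 0.179 FPKM and *Axin2*, a feedback target of the pathway, from 17 to 3.47. For Hedgehog signaling, 8 of 13 fell and 1 rose. The ligand *Shh* fell from 6.54 to 0.128 FPKM. The targets *Gli1* and *Ptch1* fell from 11.3 to 0.0747 and from 20.2 to 4.63, while *Smo*, the signal transducer, was at 53.5 and 51.9. For BMP and TGF-beta signaling, 13 of 27 fell and 1 rose. The ligands *Bmp4*, *Bmp5* and *Bmp6* fell, *Bmp4* from 11 to 0.448 FPKM, the receptor *Bmpr1a* was at 46.7 and 46.1, and the targets *Id1* and *Id3* fell from 90.2 to 40.5 and from 341 to 131. *Id2* and *Id4*, of the same family, did not pass the limit, at 119 and 147 and at 98.3 and 60.1 FPKM. The 1 gene of the list that rose was the receptor *Bmpr1b*, from 4.15 to 11.1. Under TPM scaling none of the list rose and 16 fell, where 22.5% of all genes fell. As deposited, 12.5% of all genes fell and 14.6% rose. In these pathways, members such as *Wnt8b*, *Lef1*, *Shh*, *Gli1* and *Bmp4* were below 1 FPKM in E14 CTL. They passed the minimum through the E11 libraries, which favors falls in such lists. Of 12 analyzed FGF, EGF and neuregulin ligands, 5 rose and 2 fell as deposited (median 0.83), or 3 and 2 under TPM scaling. One of the 2 that fell was *Fgf15*, an early FGF of the dorsal forebrain and midbrain, from 101 to 0.328 FPKM.

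Mesenchymal and collagen genes fell almost without exception, whereas other matrix genes were mixed. Of 19 analyzed mesenchymal, pericyte and meningeal genes, 17 fell and 1 rose (median -5.49), and of 20 analyzed collagen genes 19 fell and 1 rose (median -3.62). The 19 mesenchymal genes had a median of 25.5 FPKM in E11 CTL and 0.977 in E14 CTL, so many of them passed the minimum through E11, while the sums given above cover all 26. *Col3a1*, a fibrillar collagen of connective tissue, was at 674 FPKM in E11 CTL and 7.64 in E14 CTL. *Lum*, a proteoglycan of fibroblasts, was at 165 and 0.977, and *Dcn* at 141 and 3.13. *Foxc1*, a meningeal transcription factor, fell from 67.1 to 0.585 FPKM and *Twist1*, a mesenchymal one, from 42 to 0.45. The levels in E11 *Stat3* cKO were also high, at 586 FPKM for *Col3a1*, 80.6 for *Foxc1* and 35.2 for *Twist1*. The single mesenchymal list member that rose was *Cspg4*, which is also an oligodendrocyte precursor gene, and the single collagen was *Col9a3*, from 3.79 to 18.8 FPKM. Several basement membrane genes fell too. *Lamb1*, a laminin chain, fell from 87.5 to 3.14 FPKM, *Nid1*, which links laminin to collagen, from 32.4 to 0.762, and *Fn1*, fibronectin, from 21 to 0.899. Of 23 integrins and laminins, 14 fell and 4 rose, or 15 and 2 under TPM scaling. *Itga6*, the laminin receptor subunit of radial glia, was among those that rose, from 31.3 to 88.8 FPKM. Of 28 proteoglycan and secreted matrix genes, 9 rose and 8 fell as deposited (median -0.23), and 4 rose and 11 fell under TPM scaling. *Bcan* (brevican), a proteoglycan of brain matrix, rose from 1.82 to 102 FPKM. *Gpc3*, a glypican of mesenchyme, fell from 178 to 1.71.

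The mesenchymal transcripts overlap in kind with several of the lists above, since many WNT, BMP, IGF and Zic genes are used in meninges as well as in neural tissue. The part of such cells in the falls of those lists was not tested.

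Most of the analyzed imprinted genes fell. *H19*, a maternally expressed non-coding RNA, was at 552 FPKM in E11 CTL and 5.67 in E14 CTL, and its neighbor *Igf2*, a fetal growth factor, was at 60 and 0.783. Both were also high in E11 *Stat3* cKO, though slightly lower, at 483 and 55.8 FPKM. Of 22 analyzed imprinted genes, 14 fell and none rose (median -1.27). *Cdkn1c*, an imprinted inhibitor of cyclin-dependent kinases that promotes cell cycle exit, fell from 289.8 to 16 FPKM. *Peg3* fell from 28.1 to 8.56 and *Grb10*, an adaptor that dampens insulin and IGF receptor signaling, from 199 to 65.7. *Gnas* and *Ndn* did not, with *Ndn* (necdin), a neuronal imprinted gene, at 239 and 230.5. In the IGF system 9 of 14 fell and 2 rose. *Igfbp4* fell from 209.7 to 26.3 FPKM, whereas *Igfbp2* rose from 202 to 646 and *Igfbp3* from 9.43 to 82.1, all of them secreted binding proteins.

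Many proliferation genes rose in the controls. Of 41 genes of the DNA replication machinery, all had a ratio above 1, 25 rose at least 2-fold and none fell (median 1.08). Of 34 genes of G2 and mitosis, 19 rose and none fell (median 1.05), and of 29 nucleotide synthesis genes 16 rose and none fell (median 1.10, with 9 rises left under upper-quartile and 7 under TPM scaling). The shares of 14.6% and 12.5% are the background. Among all genes of 30 to 100 FPKM, 18.8% rose and the median was 0.50. *Pcna*, the sliding clamp of DNA polymerase, was at 187 FPKM in E11 CTL and 575 in E14 CTL. *Mcm5* and *Mcm6*, subunits of the replicative helicase, rose from 30.7 to 82.2 and from 59.6 to 138. *Tk1*, which salvages thymidine, rose from 20.9 to 97 FPKM and *Cdk1*, the mitotic kinase, from 29.6 to 111. *Mki67*, the proliferation antigen Ki-67, was at 17.2 and 21.6, short of 2-fold.

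The rise was steeper in the control pair than in the *Stat3* cKO pair, in which none of the 41 replication genes and none of the 34 mitotic genes passed 2-fold (medians 0.05 and 0.49). Across the 4 libraries, E14 CTL held the highest value for 40 of the 41 replication genes and E11 CTL the lowest for 31, against 39.3% and 35.0% of all analyzed genes. *Mcm6* stood at 75.5 FPKM in E11 *Stat3* cKO and 62.8 in E14 *Stat3* cKO, between the control values. The difference between the pairs was not tested, as no group has a replicate. Scaling reduced the counts. With the median of all genes at 0, 15 replication and 8 mitotic genes rose, under upper-quartile scaling 7 and 5, and under TPM scaling 5 and 2, with none falling in any of them. Of all genes 9.73%, 7.21% and 5.25% rose under these scalings in that order. The share of mitotic genes that rose under TPM scaling was thus near that of all genes. Under TPM scaling 6 replication and 6 mitotic genes had a ratio below 1. G1 regulators were mixed, with 7 of 27 higher and 2 lower as deposited, 5 and 4 with the median of all genes at 0, and 4 and 5 under TPM scaling. *Ccne2*, a cyclin of S phase entry, rose from 4.95 to 18.6 FPKM and *Cdkn2c*, an inhibitor of CDK4 and CDK6, from 6.88 to 42.7. Replication-dependent histones, made in S phase, rose in 23 of 62 cases and fell in 4 as deposited, but rose in 6 and fell in 7 under TPM scaling. Their transcripts mostly lack a poly(A) tail, and how RNA was selected for the libraries is not given in the sources used here.

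E2F factors switch on replication genes at the start of S phase through sites near the transcription start. The letters TTTCCCGC or TTTGGCGC, forms of the E2F site, were searched on both strands in RefSeq promoters (build GRCm38.p6, 250 bases before to 50 after the start). They were found in 1.56% of all 32851 promoters, in 2.92% of the 12619 promoters of analyzed genes that had one, and in 12 of the 39 promoters, or 30.8%, of the 33 replication genes that had one, out of 41. The replication genes are textbook E2F targets, so this share describes the list and not the change, and none of the 32 promoters of the mitotic genes held these letters although those genes rose too. To let the sites be seen, the 250 bases before the start are shown for the 3 replication genes with the largest rises among those in which this stretch holds the letters, with the match in capitals, *Mcm5* at chr8:75109259-75109508 (plus strand), *Cdc6* at chr11:98907901-98908150 (plus strand) and *Mcm6* at chr1:128359706-128359955 (minus strand).
Mcm5: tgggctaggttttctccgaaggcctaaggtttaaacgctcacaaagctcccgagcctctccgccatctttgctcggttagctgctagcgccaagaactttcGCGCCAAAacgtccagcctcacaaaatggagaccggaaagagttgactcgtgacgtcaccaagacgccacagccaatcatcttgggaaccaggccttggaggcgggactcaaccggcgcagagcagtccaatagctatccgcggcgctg
Cdc6: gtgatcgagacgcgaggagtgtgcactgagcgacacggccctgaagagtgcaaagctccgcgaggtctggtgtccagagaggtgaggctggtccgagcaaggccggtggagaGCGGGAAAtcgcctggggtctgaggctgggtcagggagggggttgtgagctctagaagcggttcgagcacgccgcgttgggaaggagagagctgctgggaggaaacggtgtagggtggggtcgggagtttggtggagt
Mcm6: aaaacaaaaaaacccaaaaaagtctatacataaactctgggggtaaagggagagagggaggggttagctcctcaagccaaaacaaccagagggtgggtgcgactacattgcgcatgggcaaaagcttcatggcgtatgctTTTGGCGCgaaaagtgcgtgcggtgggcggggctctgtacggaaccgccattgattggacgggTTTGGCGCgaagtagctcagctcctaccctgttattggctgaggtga
*Cdc6*, which loads the helicase onto origins, rose from 4.61 to 11.4 FPKM. The *Mcm6* stretch holds the letters at 2 places.

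Many genes of mitochondrial energy production rose, at moderate size. Of 37 complex I subunits, all had a ratio above 1, 19 rose at least 2-fold and none fell (median 1.01). Of 43 subunits of complexes II to V, 28 rose and 2 fell (median 1.18), and of 25 enzymes of the TCA cycle 12 rose and none fell (median 0.97). Most of these genes are abundant, and among all genes of at least 100 FPKM 27.9% rose with a median of 0.67. The medians of these lists were thus somewhat above that of the abundant genes as a whole. *Ndufc2*, a complex I subunit, rose most, from 112 FPKM in E11 CTL to 668 in E14 CTL. *Atp5b*, the catalytic beta subunit of ATP synthase, rose from 586 to 1528 FPKM. *Idh3a*, a subunit of the NAD-dependent isocitrate dehydrogenase, rose from 18.1 to 69.7, and *Pcx*, pyruvate carboxylase, which is prominent in astrocytes, from 6.35 to 41.4. The 2 subunits that fell are tissue-restricted isoforms of cytochrome c oxidase, *Cox4i2*, from 5.5 to 0.56 FPKM, and *Cox6a2*, from 6.03 to 0.1. Their ubiquitous counterparts *Cox4i1* and *Cox6a1* were at 520.3 and 951, and at 207 and 379.

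Genes of the machinery that builds mitochondria rose in part. Of 74 mitochondrial ribosomal proteins, all had a ratio above 1 and 34 rose (median 0.93), and of 28 import and chaperone genes 13 rose (median 0.97), with none falling in either list. *Hspd1*, the chaperonin HSP60, rose from 143 to 429 FPKM. Cytosolic ribosomal proteins hardly moved and were below the median of 0.67 of genes of at least 100 FPKM, with 2 of 79 higher and 1 lower and a median of 0.38 as deposited that became -0.18 under TPM scaling. With TPM scaling, the counts of rises fell to 3 for complex I, 3 for complexes II to V and 3 for mitochondrial ribosomal proteins, while the medians stayed positive at 0.45, 0.62 and 0.38. Of all genes 5.25% rose under TPM scaling, which is above the share of the mitochondrial ribosomal proteins and near those of the complexes. For TCA cycle enzymes and for import and chaperone genes, the rises went from 12 and 13 as deposited to 4 and 4 (medians 0.42 and 0.42). In the *Stat3* cKO pair the medians of the first 3 lists were 0.85, 0.84 and 0.53. Mitochondrially encoded genes were not analyzed here.

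Glycolysis genes were close to the median of all genes. Of 24, 3 rose and 3 fell (median 0.13), whereas under TPM scaling 1 rose and 7 fell (median -0.43). Isoforms parted company. *Aldoc* rose, as given above, whereas *Aldoa*, the ubiquitous aldolase, was at 276 and 482 FPKM. *Eno1* rose from 83.4 to 191 FPKM, while *Eno3*, the muscle enolase, fell from 6.51 to 2.02. *Slc16a3*, a lactate exporter, fell from 9.56 to 0.796 FPKM and *Slc16a1*, the lactate transporter of many growing cells, rose from 18.6 to 42.1. Of 20 hypoxia response genes, 6 fell and 1 rose, and *Vegfa*, the angiogenic growth factor, fell from 77.6 to 12.4.

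Sterol synthesis had the largest median rise of the metabolic lists. Of 23 analyzed genes, 17 rose and 1 fell (median 1.31), with 8 rises left under TPM scaling. *Fdps*, which makes farnesyl diphosphate, was at 82.3 FPKM in E11 CTL and 496 in E14 CTL. *Idi1*, an isomerase of the same pathway, rose from 21.7 to 127. *Insig1*, a sterol-regulated brake of the pathway, rose from 53.5 to 217 FPKM. The control pair and the *Stat3* cKO pair differed here as well. E11 CTL held the lowest of the 4 values for 22 of the 23 genes, and in the *Stat3* cKO pair 2 rose and 1 fell (median 0.18). *Idi1* was at 70.5 FPKM in E11 *Stat3* cKO and 79.6 in E14 *Stat3* cKO. Among lipid genes outside this pathway, *Dbi*, the acyl-CoA-binding protein, rose from 121 to 1555 FPKM and *Cpt1a*, which brings fatty acids into mitochondria, from 1.93 to 12.7. Of 26 fatty acid genes, 10 rose and none fell.

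Genes of the integrated stress response fell almost as a set. This response couples amino acid shortage and other stresses through phosphorylated eIF2 to the transcription factor ATF4, which switches on amino acid transporters, synthetic enzymes and regulators of survival. Of 25 genes, 23 fell at least 2-fold and none rose (median -2.37), against 12.5% of all genes that fell. *Wars* and *Gars* were the members short of the limit. Each of the 3 scalings gave 24 falls. *Nupr1*, a stress-induced nuclear protein, was at 71.4 FPKM in E11 CTL and 0.6 in E14 CTL. *Slc7a11*, the cystine transporter, was at 140.1 and 1.64. *Trib3*, a pseudokinase that restrains ATF4, was at 24.7 and 0.41. Each of these was thus lower at E14 by 60.2-fold or more. *Chac1*, which breaks down glutathione, fell from 57.2 to 2.16 FPKM and *Asns*, which makes asparagine, from 286 to 55.6. *Ddit3* (CHOP), which promotes cell death under lasting stress, fell from 93.3 to 15.9. *Atf4* itself fell from 310.4 to 113 FPKM. It is controlled largely at translation, which these data do not measure.

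The high values belonged to E11 CTL. It held the highest of the 4 values for 23 of the 25 genes, against 16.4% of all analyzed genes, and E11 *Stat3* cKO was lower for most of them. *Nupr1* was at 12.9 FPKM there, *Atf5*, another ATF4-family factor, at 19.4 against 99.8 in E11 CTL, and *Trib3* at 7.76. At E14 the genotypes were closer, with *Nupr1* at 0.561, *Atf5* at 8.37 against 9.11, and *Trib3* at 0.362 FPKM in *Stat3* cKO. In the *Stat3* cKO pair 16 of the 25 fell and none rose (median -1.25). Of 22 ER chaperone genes controlled by XBP1 and ATF6, 3 rose and 3 fell, and *Hspa5* (BiP), the main ER chaperone, was at 142 and 257 FPKM. Of 23 heat shock genes, 3 rose and 1 fell (median 0.72, against 0.67 among all genes of at least 100 FPKM), and of 19 p53 targets 2 rose and 4 fell. Under TPM scaling rises and falls numbered 1 and 5 for the ER chaperones, 0 and 2 for heat shock genes and 0 and 6 for p53 targets. Of all genes 14.6% rose and 12.5% fell as deposited, and 5.25% and 22.5% did under TPM scaling. The counts of ER chaperones were near these shares.

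ATF4 binds with C/EBP proteins to an element written here as TTNCATCA, which was found on either strand in 3.97% of the 32851 RefSeq promoters and in 2.08% of those of analyzed genes. Of the 25 genes only 19 had a promoter in the table, fewer than 80%, so no share is drawn for the list. Among those that had one, the promoters of *Asns*, *Atf3*, *Chac1*, *Gars*, *Nupr1*, *Slc7a11*, *Trib3* and *Vldlr* held these letters. The 250 bases before the start are shown for the 3 genes with the largest falls among those in which this stretch holds the letters, with the element in capitals, *Nupr1* at chr7:126625471-126625720 (minus strand), *Slc7a11* at chr3:50443614-50443863 (minus strand) and *Chac1* at chr2:119350992-119351241 (plus strand).
Nupr1: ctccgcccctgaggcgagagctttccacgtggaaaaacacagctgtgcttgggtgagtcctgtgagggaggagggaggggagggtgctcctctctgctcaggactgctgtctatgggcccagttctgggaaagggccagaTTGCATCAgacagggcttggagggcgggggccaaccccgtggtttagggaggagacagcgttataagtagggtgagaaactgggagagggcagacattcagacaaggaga
Slc7a11: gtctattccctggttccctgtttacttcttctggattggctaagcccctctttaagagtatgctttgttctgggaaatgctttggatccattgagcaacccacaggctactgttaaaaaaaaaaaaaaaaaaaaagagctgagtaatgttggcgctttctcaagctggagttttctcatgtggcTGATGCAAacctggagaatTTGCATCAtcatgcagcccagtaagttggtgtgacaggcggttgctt
Chac1: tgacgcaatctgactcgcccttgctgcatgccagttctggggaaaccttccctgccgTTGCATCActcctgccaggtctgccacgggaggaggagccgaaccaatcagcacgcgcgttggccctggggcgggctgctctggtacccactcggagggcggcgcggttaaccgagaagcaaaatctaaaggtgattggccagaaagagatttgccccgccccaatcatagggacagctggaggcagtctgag
The *Slc7a11* stretch holds the letters at 2 places, 1 on each strand. A match is a description of the sequence and does not show that a factor was bound in these cells. The letters of a sterol response element, TCACCCCAC, were found in 0.551% of all promoters and in none of the 20 promoters of the sterol genes that had one, 15 of 23 genes, too few to draw a share.

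Aminoacyl-tRNA synthetases, which load tRNAs with amino acids, are given here by symbol, a division chosen after their values had been seen. Over all 36, 7 rose and 6 fell as deposited, but 1 rose and 12 fell under TPM scaling, so the rises below depend on scaling. Of 19 enzymes whose symbol lacks a final 2, most of them cytosolic, 5 fell and 1 rose (median -0.59). Of 17 whose symbol ends in 2, the mitochondrial forms, 6 rose and 1 fell (median 0.68), and 16 had a ratio above 1. *Iars*, the cytosolic isoleucine enzyme, fell from 66.6 to 25.1 FPKM, while *Iars2*, its mitochondrial counterpart, rose from 19.7 to 47.3. *Cars* fell from 54.7 to 19.4 FPKM and *Cars2* rose from 5.99 to 21. The exception was *Lars2*, from 2331 FPKM in E11 CTL to 111 in E14 CTL, with 2558 and 1782 in the *Stat3* cKO pair, so that its E14 control value stood apart from the 3 others. The other 16 of this group together summed to only 136 FPKM in E11 CTL. Whether the high *Lars2* values reflect its mRNA alone was not tested. *Eif4ebp1*, a translation repressor that ATF4 also induces, fell from 117 to 27.2 FPKM. Of 20 serine, folate and one-carbon genes, 6 rose and 4 fell (median 0.40), or 5 and 4 under TPM scaling. Among them, mitochondrial *Mthfd2* fell from 83 to 30.9 and *Aldh1l2* from 34.4 to 5.7, while cytosolic *Mthfd1* rose from 12.4 to 42.1 and *Shmt1* from 9.75 to 45. *Psat1* and *Phgdh*, enzymes of serine synthesis, were not past the limit, with *Psat1* at 298 FPKM in E11 CTL and 311 in E14 CTL and *Phgdh* at 200.1 and 269.8.

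**Figure D3:**
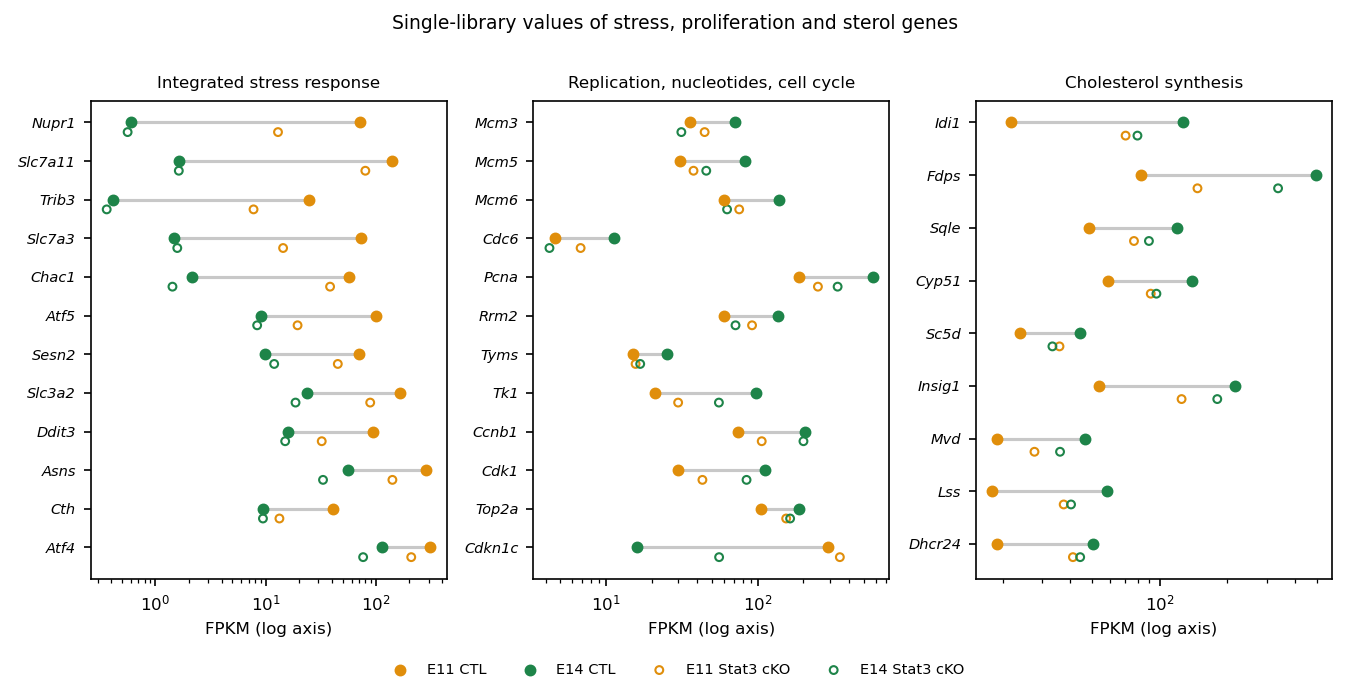
Values of stress, proliferation and sterol genes in the 4 libraries, in FPKM on a log axis, with filled points for control and open points for *Stat3* cKO (orange for E11, green for E14). In the left panel E11 CTL lies to the right of the other libraries for each stress gene shown. In the other panels E14 CTL lies to the right of the other libraries for each gene shown except *Cdkn1c*, which goes the other way.

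Several targets and feedback inhibitors of FGF-ERK signaling rose. Both cultures had been given FGF and EGF. Of 17 analyzed genes, 9 rose and 1 fell (median 1.78), and 9 rose under every scaling tried, although the number of falls then went up to 5. As deposited, a ratio below 1 was found for 7 of them. *Spry4*, an inhibitor induced by the pathway, was at 0.795 FPKM in E11 CTL and 11.1 in E14 CTL. *Spry2* rose from 6.52 to 73.7 FPKM, and *Dusp6*, the ERK phosphatase, from 14.6 to 60.4. *Etv4* and *Etv5*, transcription factors that carry the response, rose from 2.61 to 37.1 and from 5.43 to 51.5. The *Stat3* cKO pair had a median of 0.12 with 6 rises and 4 falls, and *Dusp6* was at 12.4 and 10.3 FPKM there, so that in this gene E14 CTL stood above the 3 other libraries. Of 18 receptor kinases, 5 rose and 6 fell, or 3 and 7 under TPM scaling. *Fgfr3*, of radial glia and astrocytes, was at 35.1 and 45.9 FPKM and *Fgfr2* fell from 30.6 to 13.6. *Hbegf*, the ligand named above, acts through the EGF receptor. Of 14 immediate early genes, which respond to such signals within minutes, 5 rose and 2 fell, with *Fos* going from 0.952 to 6.74 FPKM, whereas 3 rose and 3 fell under TPM scaling.

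In JAK-STAT signaling the transducer rose while a shared receptor fell. *Stat3*, which conveys gp130 cytokine signals to astrocyte genes, was at 7.41 FPKM in E11 CTL and 27.6 in E14 CTL, a 3.73-fold rise, as against 6.74 and 9.55 in the pair labelled *Stat3* cKO. It was the only 1 of 19 analyzed genes to rise, while 5 fell as deposited and 9 under TPM scaling. *Il6st*, which encodes gp130 itself, fell from 44.9 to 7.58 FPKM, and *Cntfr*, the receptor of ciliary neurotrophic factor, from 8.72 to 2.85. *Lifr*, the receptor partner of gp130, was at 10.6 and 10.2, and *Jak1*, the kinase, at 19.2 and 19.9. *Socs3*, a feedback target of STAT3, was at 4.15 and 2.78, short of 2-fold. Of 16 analyzed interferon and antigen presentation genes, 9 fell and none rose, against 12.5% of all genes that fell. *Ifitm1*, which passed the minimum through E11, went from 20.1 to 0.0463 FPKM, and 9 members of the list were below the minimum. Of 23 Notch pathway genes, 3 rose and 5 fell as deposited, 1 rose and 10 fell under TPM scaling, and 7 rose and 2 fell in the *Stat3* cKO pair. *Hes5*, the Notch effector of radial glia, was at 88.5 and 124 FPKM, whereas *Lfng*, which modifies Notch receptors, rose from 11.1 to 56.7.

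Few chromatin remodeling and splicing genes passed the limit as deposited. Of 25 chromatin remodeling subunits, none rose and only *Arid1a* fell, from 7.95 to 2.71 FPKM. Of 36 splicing factors, 2 rose and 2 fell, and of 319 analyzed zinc finger genes of the Zfp series 4 rose and 19 fell, both below the background shares. Under TPM scaling, where 22.5% of all genes fell, 9 of the remodeling subunits, 4 of the splicing factors and 56 of the Zfp genes did. Of 19 genes of PRC2, DNA methylation and TET enzymes, 2 rose and 4 fell (21.1%) as deposited, and 1 rose and 8 fell under TPM scaling. *Uhrf1*, which keeps DNA methylation through replication, rose from 33.4 to 89.5 FPKM, and *Tet3*, which oxidizes methylcytosine, fell from 7.78 to 3.13.

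**Figure D4:**
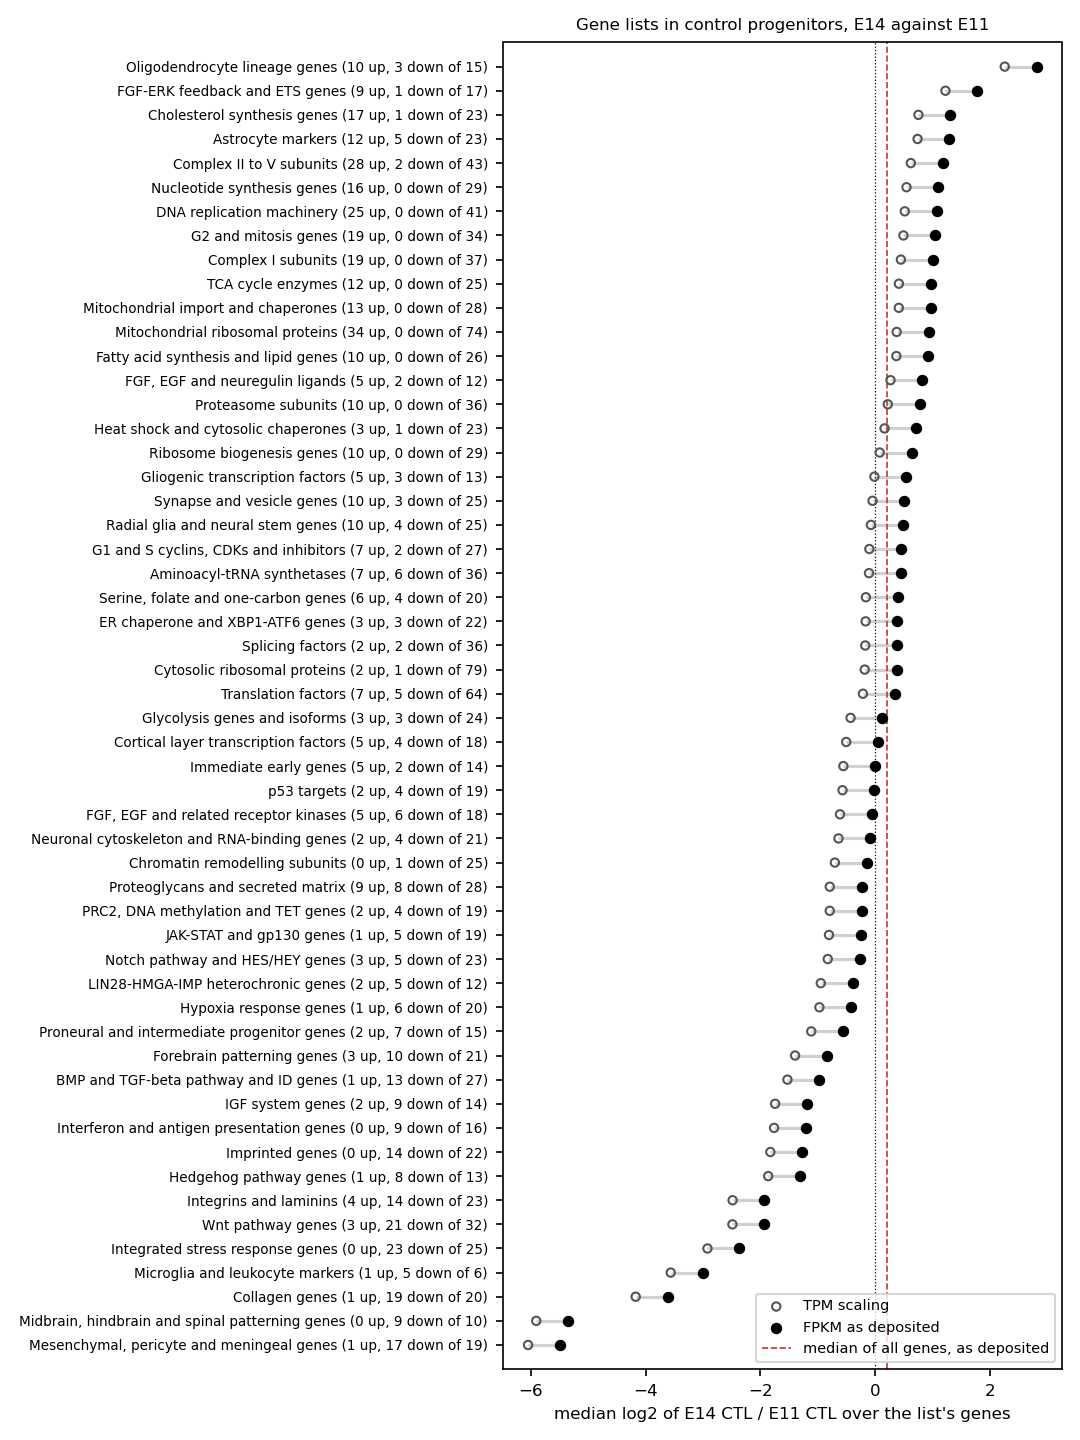
Median log2 E14 CTL to E11 CTL ratio of each of the gene lists with at least 5 ratios, with the number of members at least 2-fold higher and lower. Filled points give the FPKM values as deposited and open points the same after TPM scaling, and the dashed line marks the median of all genes, 0.21. Oligodendrocyte lineage genes stand at the top (2.82) and mesenchymal genes at the bottom (-5.49).

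Some changes ran over neighboring genes. Counted along the analyzed genes, there were 9 stretches of at least 4 consecutive genes that rose and 8 that fell. Coordinates are given as the files list them, in a build that was not matched to GRCm38. On chromosome 12, from 110691032 to 111519307, 7 consecutive entries of the imprinted *Dlk1*-*Dio3* region fell (median log2 ratio -3.41). *Dlk1*, a transmembrane ligand related to Notch ligands, fell from 4.66 to 0.123 FPKM, *Rian*, a non-coding RNA of the other parental allele, from 144 to 50.3, and *Dio3*, which inactivates thyroid hormone, from 5.58 to 0.317. Genes of both parental alleles were thus lower. On chromosome 14, from 122580915 to 123382483, 8 consecutive entries that include *Zic2* and *Zic5* fell (median -2.03), among them *Pcca*, a mitochondrial carboxylase subunit. On chromosome 8, from 94322409 to 95377319, *Irx3*, *Irx5* and *Mmp2* fell with 1 uncharacterized gene (median -5.30). Of the rises, 4 histone genes from *Hist1h3b* to *Hist1h3a* lay together on chromosome 13 from 23844248 to 23854255 (median 1.65).

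The *Stat3* cKO pair shares no library with the control pair, and its E14 to E11 ratios are placed beside the control ratios as a description. Of 12426 genes with a ratio there, 10.1% rose and 11.7% fell. Control falls were met by a fall of at least 2-fold in the *Stat3* cKO pair in 1185 of 1544 genes (76.7%), and control rises by a rise in 930 of 1818 (51.2%), while 1753 of those 1818 had a ratio above 1. The midbrain, hindbrain and spinal list had medians of -5.35 in the control pair and -5.42 in the *Stat3* cKO pair, the mesenchymal list -5.49 and -5.56, and the oligodendrocyte list 2.82 and 3.25. Many members of the first and second lists passed the minimum through the E11 libraries, and some of the third through the E14 libraries. That favors these directions in both pairs. Replication, nucleotide and sterol synthesis and FGF-ERK feedback genes had medians above 1 in the control pair and between 0.05 and 0.18 in the *Stat3* cKO pair. The heterochronic list was the reverse case, with a median of -0.39 in the control pair and -1.70 in the *Stat3* cKO pair. None of these differences between pairs was tested.

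**Figure D5:**
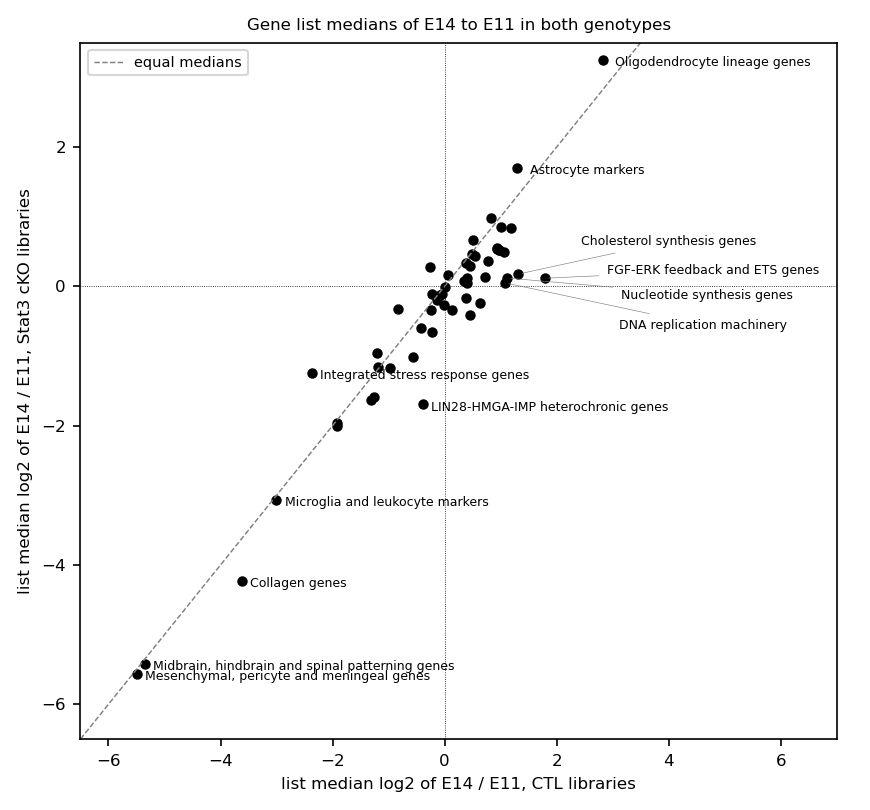
Each point is 1 gene list with at least 5 ratios. The horizontal axis gives its median log2 E14 to E11 ratio in the control pair and the vertical axis the same in the *Stat3* cKO pair, and the dashed line marks equal medians. Lists of replication, nucleotide synthesis, sterol synthesis and FGF-ERK feedback lie below the line near 0 on the vertical axis, and the integrated stress response lies above it.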

How the data were processed

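RNA of 4 libraries, 1 per genotype and stage, was sequenced on an Illumina HiSeq instrument, checked with FastQC and processed by the authors with the Tuxedo pipeline (TopHat and Cufflinks), and the FPKM values were analyzed as deposited. The submitters' processing notes name Bowtie 0.12.2 and the builds mm8 and mm9, and the Cufflinks version and the annotation are not given in the sources used here. Read numbers are unknown, so no counting interval can be given. The most common ratio among low entries, shared by 219 of 1041, gave a depth of E11 CTL relative to E14 CTL of 1.20.

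Entries of both control libraries were matched on gene and locus and kept where the mean over the 4 libraries reached 1 FPKM. The plain E14 to E11 ratio was taken without a pseudocount and called at 2-fold, with no test. Of the analyzed entries, 85 join several symbols, and genes with near-identical copies, such as ribosomal protein and histone genes, are uncertain because reads can be split among copies. Gene lists (56) and families defined by symbol (46) were described by counts of calls and medians. The comparison, the lists and the choice of members were made with earlier results of these data known. Named genes were the 20 largest rises and falls among entries of 1 symbol other than small RNAs with a mean of at least 5 FPKM, the 10 highest entries of each control library, marked members and the extreme members of each list, and members of runs of at least 4 neighboring genes. The following were named after their values had been seen: *Aif1*, *Bmp5*, *Bmp6*, *Cacna2d1*, *Cars*, *Cnp*, *Eif2s3y*, *Eno3*, *Foxp2*, *Gars*, *Gfap*, *Iars*, *Iars2*, *Lgr4*, *Lin28a*, *Mcm5*, *Meis2*, *Mlc1*, *Mog*, *Mthfd1*, *Pecam1*, *Rn45s*, *Rspo1*, *Rspo2*, *Shmt1*, *Slc16a1*, *Trim71*, *Vldlr*, *Xist* and *Zic1*.

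Alternatives were 3 scalings (median of all genes at 0, upper quartile, TPM), pseudocounts of 0.1 and 1 FPKM, a minimum mean of 5 FPKM, none, or over the control libraries alone, limits of 1.5-fold and 3-fold, and leaving out joined and small RNA entries. Promoters were those of RefSeq (GRCm38.p6). The coordinates listed in the files were never combined with that build. The calculations used pandas 2.3.3, numpy 2.4.6 and matplotlib 3.10.9 under Python 3.11.15 and were tested on simulated data. Some members of the lists count in the totals and medians but are not reported here by name.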

Additional observations from a re-analysis of the deposited data

Results flagged for a closer look

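*Rpl13a*, a protein of the large ribosomal subunit, moved in opposite directions in the genotypes. It was at 5475 FPKM in E11 CTL and 2003 in E14 CTL (log2 ratio -1.45), and at 1349 and 7361 FPKM in the *Stat3* cKO pair (log2 ratio 2.45). The gene has many processed copies in the genome, so the value of each library is uncertain.

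*Ccnd1*, cyclin D1, which drives progress through G1, was at 101 FPKM in E11 CTL and 210.1 in E14 CTL (log2 ratio 1.05), and at 120.3 and 34.2 FPKM in the *Stat3* cKO pair (log2 ratio -1.81). The rise in the control pair was only just past 2-fold and does not pass it once the all-gene median is moved to 0. With 1 library per group the difference between genotypes was not tested for either gene. In all, 7 analyzed genes passed 2-fold in opposite directions in the 2 pairs of libraries.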

How the results depend on the processing

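Counts of all genes depended on scaling and threshold, as given in the report for scaling. Against 1820 rises and 1548 falls as deposited, 1210 genes rose once the all-gene median was moved to 0, 896 under upper-quartile scaling and 653 under TPM scaling, which gave 2795 falls. A minimum mean of 5 FPKM left 687 falls, and no minimum gave 4882. A limit of 1.5-fold gave 3767 rises and 2350 falls, and a limit of 3-fold 620 and 926. Over all alternatives, 519 counts of rises or falls in lists moved by more than 1.5 times and 1553 did not. Ratios of single genes could move by that much only with a pseudocount, since scaling moves every log2 ratio by the same amount, at most -0.56, and a changed minimum leaves it as it is. With a pseudocount of 1 FPKM, 126 values of named genes and lists moved by more than 1.5 times, and with 0.1 FPKM 30 did. The largest fall, that of *Crabp2*, went from a log2 ratio of -10.59 to -6.21 with a pseudocount of 1 FPKM. No paired analysis was possible because each group has 1 library, and no replicate could be left out for the same reason. Read depth is unknown, and values near 0 FPKM limit how well large folds are known.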

Other observations

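Of 36 proteasome subunits 10 rose (27.8%) and none fell (median log2 ratio 0.78), close to the 27.9% and 0.67 of all genes of at least 100 FPKM, and only 1 rose once the all-gene median was moved to 0. Of 29 ribosome biogenesis genes 10 rose and none fell as deposited (median 0.64, against -0.24 in the *Stat3* cKO pair), but 2 rose and 2 fell under TPM scaling. Of 7 analyzed annexins, calcium-dependent membrane-binding proteins, 5 fell and 1 rose (median -1.58). Of 10 Eph receptors, which guide cell sorting and axons, 5 fell and none rose, and 8 fell under TPM scaling. Of 11 cathepsins, lysosomal proteases, 4 fell and 1 rose (median -0.95), and 7 fell under TPM scaling. The median of all genes was 0.21, with 14.6% rising and 12.5% falling.

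Small nucleolar RNAs rose in 17 of 42 cases and fell in none as deposited, and in 7 with 3 falls under TPM scaling (median 0.02), while 29 of 38 rose in the *Stat3* cKO pair. Of all genes 14.6% rose in the control pair as deposited, and 27.9% of those of at least 100 FPKM. Values of such short RNAs varied widely. *Snord83b* was at 42734 FPKM in E11 CTL and 62839 in E14 CTL, and at 0 and 248284 in the *Stat3* cKO pair.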
